A study of Homo sapiens with 12 samples.

Results

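The unfolded protein response genes HSPA5, HERPUD1, EDEM1 and SDF2L1 were followed in Huh7 hepatoma cells in which expression of the RNA-binding protein A1CF was switched on with doxycycline. They are 4 of 1863 genes in the deposited table for the mutant G398S form of A1CF, and were taken by symbol from that table. Because the table holds genes that the authors marked as significant, the induced and uninduced values below are the values that chose the genes, and they are given as a description. None of the 4 genes was among the 142 genes of the table for the wild-type (WT) clone, so their values in that clone were not analysed here, and nothing about their change there follows.

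Huh7 is an established human hepatocyte-derived tumour line, and A1CF is a cofactor of the enzyme that edits apolipoprotein B mRNA. The labels describe 12 libraries in 4 groups of 3: a Huh7 clone with an inducible WT A1CF construct and a Huh7 clone with an inducible G398S A1CF construct, each with and without doxycycline. Each construct was represented by 1 clone, RNA of the construct and of the resident A1CF gene share 1 value, and no group received doxycycline without a construct, so effects of the protein, the drug and the clone cannot be told apart. Nothing says that the 3 libraries of a group were separate cultures, so the authors' p-values measure the spread between these libraries, which may be technical. The study asked how the WT and mutant proteins differ in regulating lipid metabolism. Each group has 1 FPKM value per gene (fragments scaled by transcript length and library size), pooled by the authors over 3 libraries, so no library can be shown on its own and the depth is unknown.

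A1CF itself went from 26.3 to 80.9 FPKM with doxycycline in the G398S clone and from 19.5 to 33.2 FPKM in the WT clone. Of 12 hepatocyte markers, 3 were among the G398S genes, namely TF, APOA1 and APOA2, and their summed level went from 853 to 578 FPKM. Of 5 cholangiocyte markers, 3 were in that table, all lower, with a summed level of 199 FPKM before and 133 FPKM after. Of 5 leukocyte markers only LYZ was in it, at 7.29 and 3.87 FPKM, and of 4 endothelial markers only ESAM, at 1.48 and 0.674 FPKM. Of 6 fibroblast or stellate markers, COL1A2 was higher and PDGFRB lower, both under 1 FPKM in either group. Of 5 globin genes, 4 were in the G398S table, all higher, with a summed level of 183 FPKM without and 4535 FPKM with doxycycline. No marker in that table was listed at 0. In the WT table, 3 of the 5 globin genes were present, HBA2 higher and HBG1 and HBG2 lower, with a summed level of 37206 FPKM without and 337 FPKM with doxycycline, and LYZ went from 83.9 to 39.4 FPKM; no other marker was in it. These shifts moved with the same contrasts as the results below, in both clones, and their part in them was not tested. The library kit removes globin RNA, per the labels, and whether that removal differed between groups was not tested. The samples were clones of the Huh7 line, so the marker values describe RNA and are not counts of cell types. In bulk RNA, fewer cells in a given state and less RNA per cell cannot be told apart.

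The unfolded protein response is the program by which a cell adjusts to unfolded proteins in the endoplasmic reticulum (ER). The membrane sensors IRE1, PERK and ATF6 pass the signal to the transcription factors XBP1, ATF4 and cleaved ATF6, which raise genes for folding, for export and for the disposal of misfolded proteins. In hepatocytes, which secrete most plasma proteins and assemble lipoproteins in the ER, the same program is tied to secretory load and to lipid synthesis. HSPA5 encodes BiP, the main Hsp70 chaperone of the ER lumen, which also restrains the sensors. SDF2L1 encodes a lumenal ER protein that acts with the co-chaperones of BiP. HERPUD1 encodes an ER membrane protein with a ubiquitin-like domain that helps organise the ER-associated degradation complex. EDEM1 encodes a mannosidase-related protein that directs misfolded glycoproteins to that complex.

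In the G398S clone the chaperone HSPA5 and the degradation genes HERPUD1 and EDEM1 were higher with doxycycline, and the chaperone partner SDF2L1 was lower. All 4 differences were small. The 3 rises lay between 1.25-fold and 1.29-fold, and the fall was 1.36-fold. Genes with q at most 0.05 and analysed here made up 10.9% of the 17072 genes tested in that clone, 5.06% higher and 5.86% lower. As all 4 members were chosen from this table, their being in it carries no information.

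Among the chaperone genes, HSPA5 (hg19, chromosome 9, 127997127 to 128003666) had 99.6 FPKM without and 126 FPKM with doxycycline. That is 26.0 FPKM more, and the authors' deposited table gives a log2 fold change of 0.33 (q = 0.0206). HSPA5 was the most abundant of the 4 genes in both groups, and 92.9% of the table's genes had a lower uninduced FPKM. SDF2L1 (chromosome 22, 21996542 to 21998588) had 39.1 FPKM without and 28.8 FPKM with doxycycline. Its log2 fold change was -0.44 in the authors' deposited table (q = 0.00349). The chaperone and its partner therefore moved in opposite directions in the same pooled groups, and the FPKM ratio of HSPA5 to SDF2L1 went from 2.55 to 4.37. Both genes were selected on these values, so the change in the ratio is a description. A ratio between genes of the same group is not touched by how the groups were scaled to each other.

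Among the degradation genes, HERPUD1 (chromosome 16, 56966002 to 56977826) had 19.4 FPKM without and 24.2 FPKM with doxycycline. Its log2 fold change was 0.32 in the authors' deposited table (q = 0.0430), close to the edge of the selection, as the largest q in the table was 0.0497. No gene beyond that edge was analysed here. EDEM1 (chromosome 3, 5229330 to 5261650) had 7.29 FPKM without and 9.41 FPKM with doxycycline, the lowest level of the 4 genes in both groups. Its log2 fold change was 0.37 in the authors' deposited table (q = 0.00954). The 3 genes that rose kept nearly the same proportions, with an FPKM ratio of HSPA5 to HERPUD1 of 5.14 without and 5.19 with doxycycline, and of HSPA5 to EDEM1 of 13.7 and 13.4. These 3 genes were selected on these values, and their changes lie near the smallest absolute log2 fold change of the table, 0.29. Each of their log2 fold changes had a standard error of 0.19 from the test statistic, so the likeness of the ratios is a description. The ratio of HERPUD1 to SDF2L1 went from 0.496 to 0.841, and that of EDEM1 to SDF2L1 from 0.187 to 0.327.

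**Figure D1:**
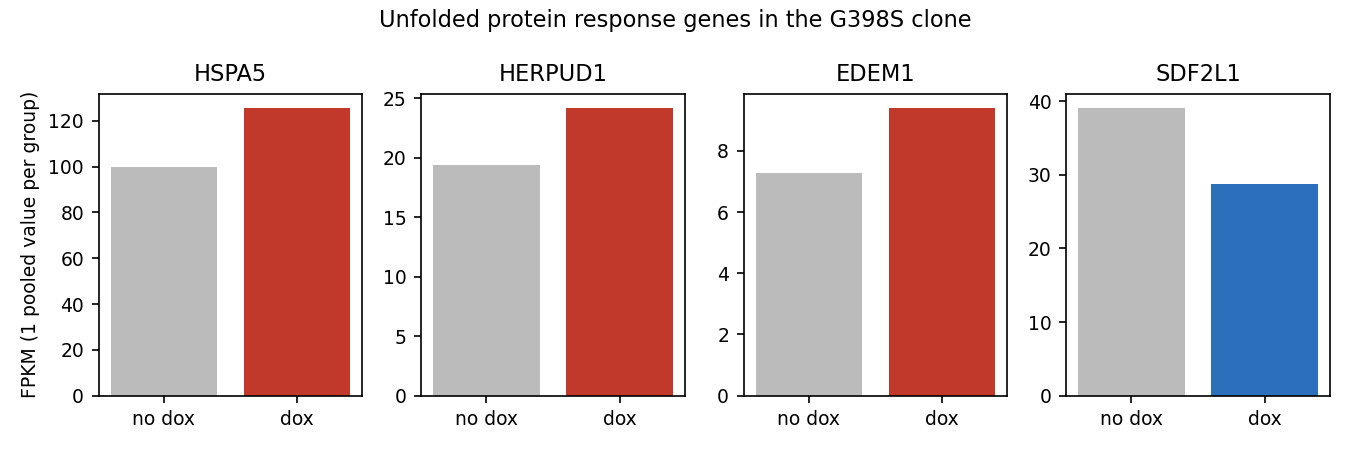
FPKM of the 4 genes in the G398S clone without (grey) and with doxycycline (red where higher, blue where lower), 1 value per group pooled by the authors over 3 libraries, so there is no error bar. HSPA5, HERPUD1 and EDEM1 are higher with doxycycline and SDF2L1 falls from 39.1 to 28.8 FPKM; each panel has its own axis, starting at 0.

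The order of the levels, per length, was HSPA5, SDF2L1, HERPUD1 and EDEM1 in both groups. SDF2L1 and HERPUD1 were nearer to each other with doxycycline, at 28.8 and 24.2 FPKM, than without, at 39.1 and 19.4 FPKM. Without values per library, it cannot be said which neighbours in that order differ beyond their spread.

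The error of each fold change can be read back from the authors' own test in more than one way. With the standard error taken as the fold change on the log2 scale over the deposited test statistic, it was 0.19 for HSPA5, 0.19 for HERPUD1, 0.19 for EDEM1 and 0.21 for SDF2L1. The 95% intervals on the log2 scale were then -0.03 to 0.70 for HSPA5, -0.06 to 0.70 for HERPUD1, -0.01 to 0.75 for EDEM1 and -0.85 to -0.04 for SDF2L1. With the standard error taken from the deposited p-value, the intervals were 0.12 to 0.55, 0.10 to 0.54, 0.16 to 0.58 and -0.68 to -0.21 in the same order. The second set is narrower because the deposited p-values were smaller than a normal reading of the statistic gives. As the genes were selected on these same statistics and p-values, the intervals show the size of the error, and where they lie relative to 0 is no test.

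**Figure D2:**
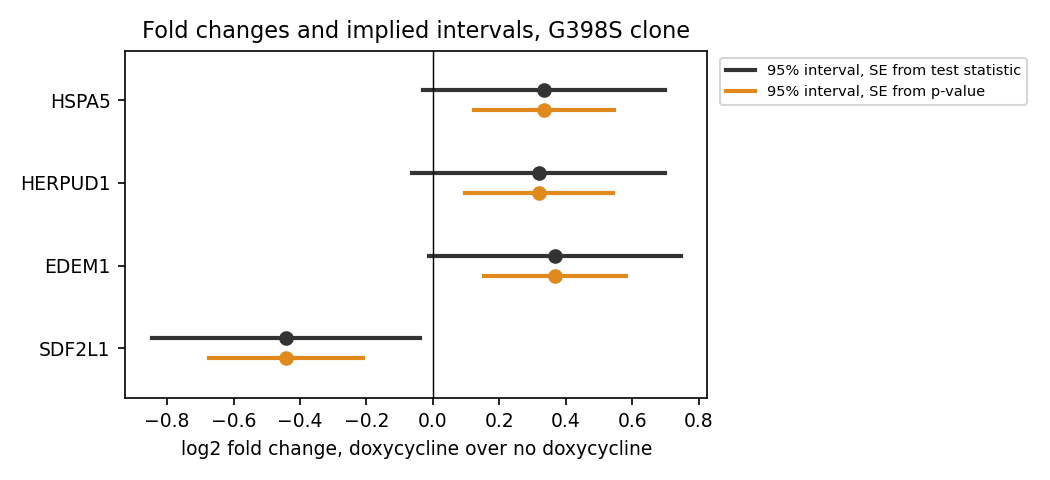
Log2 fold change (points) of each gene in the G398S clone with its 95% interval (lines), from the authors' test statistic (black) or from the deposited p-value (orange). The black lines are the wider ones, for example -0.06 to 0.70 against 0.10 to 0.54 for HERPUD1; since the genes were selected on these values, the distance from 0 is no test.

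Set against the other genes of the table, the members had modest folds. Of the 863 higher genes, 8.92% had a smaller log2 fold change than HSPA5, 5.56% a smaller one than HERPUD1 and 18.4% a smaller one than EDEM1. The median log2 fold change of higher genes was 0.54. SDF2L1 lay nearer the middle of the lower genes, 43.2% of which had a smaller absolute log2 fold change, and their median was -0.47. Ordered by p-value, SDF2L1 stood at rank 978, EDEM1 at 1253, HSPA5 at 1576 and HERPUD1 at 1987 of the 2114 genes (12.4% of those tested) that the ranks place past the threshold, some of which were not analysed here.

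**Figure D3:**
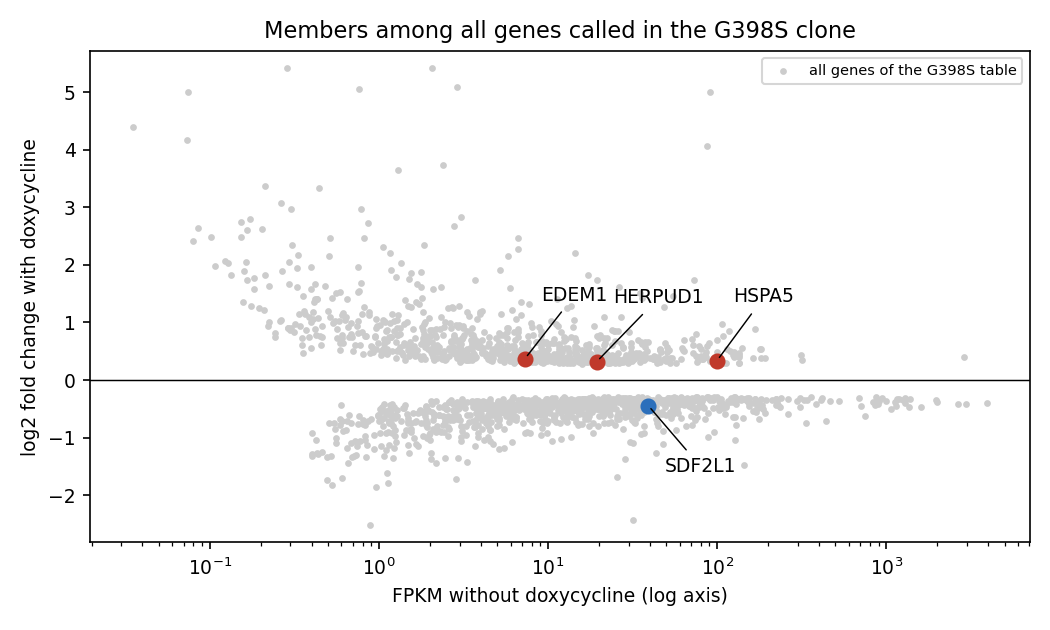
Log2 fold change with doxycycline against FPKM without doxycycline (log axis) for the 1863 genes of the G398S table (grey), with the 4 members in colour. HSPA5, HERPUD1 and EDEM1 lie at the lower edge of the higher genes, between 0.32 and 0.37, and SDF2L1 lies within the lower genes at -0.44; the empty band around 0 is there because the table holds significant genes only.

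The genes most like each member were those nearest in log2 FPKM without and with doxycycline, measured as a distance over these 2 group values among 1529 eligible genes. Nearest to HSPA5 were ARPC5 (104 and 135 FPKM), HSD17B4 (108 and 132 FPKM) and ETF1 (99.7 and 140.5 FPKM), at log2 distances of 0.12, 0.14 and 0.16. RBPJ, SOAT1 and VMA21 were nearest to HERPUD1, at distances of at most 0.0419, and ZBTB43 and CHN1 were near to EDEM1, at distances of at most 0.0346. For SDF2L1 they were DNPH1, VASP and TRAPPC5, at distances of at most 0.0424. The likeness rests on 2 values per gene, and none of these genes was on the lists of ER genes below.

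The promoters were searched for elements known for this response. The members were picked as genes of the response, so the elements are a description of them and not independent of that choice. ATF6, together with the factor NF-Y, binds the ER stress response element (ERSE), and ERSE-II is a shorter variant first described for HERPUD1. XBP1 binds the unfolded protein response element (UPRE), and ATF4 with a C/EBP partner binds a composite site. The letters searched, on both strands and in this order, were CCAAT and CCACG with 9 bases between them for ERSE, ATTGG and CCACG with 1 base between them for ERSE-II, TGACGTGG for UPRE and TGATGNAA for the ATF4 composite. The windows were the 250 bases before each RefSeq gene start on GRCh38.p14, 35114 in all. An exact ERSE was in 0.074% of the windows, ERSE-II in 0.0513%, UPRE in 0.612% and the ATF4 composite in 3.14%. The sequences of the 3 members with a match are shown because a gene that rose and the gene that fell carry the same element. They run 5′ to 3′ on the strand of the gene, and capitals mark exact matches of any motif and matches of ERSE or ERSE-II with 1 mismatch.
HSPA5: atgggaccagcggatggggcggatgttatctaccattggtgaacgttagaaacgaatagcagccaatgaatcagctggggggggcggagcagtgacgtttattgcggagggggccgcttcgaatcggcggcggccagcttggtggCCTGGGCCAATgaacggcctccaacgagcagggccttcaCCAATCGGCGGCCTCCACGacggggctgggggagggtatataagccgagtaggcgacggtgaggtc
HERPUD1: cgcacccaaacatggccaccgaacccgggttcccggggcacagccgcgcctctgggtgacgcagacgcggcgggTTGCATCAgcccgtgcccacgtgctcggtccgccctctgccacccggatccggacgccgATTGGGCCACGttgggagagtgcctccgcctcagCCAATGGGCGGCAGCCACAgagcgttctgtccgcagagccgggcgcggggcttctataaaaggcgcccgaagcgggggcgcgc
SDF2L1: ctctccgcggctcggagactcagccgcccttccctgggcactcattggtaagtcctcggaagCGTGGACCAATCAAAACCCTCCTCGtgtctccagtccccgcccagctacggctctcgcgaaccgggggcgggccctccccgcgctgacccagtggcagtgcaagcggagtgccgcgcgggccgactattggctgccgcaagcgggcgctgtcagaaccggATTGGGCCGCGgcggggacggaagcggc
These windows are chr9:125241344-125241593 (minus strand) for HSPA5, chr16:56931892-56932141 (plus strand) for HERPUD1 and chr22:21642052-21642301 (plus strand) for SDF2L1.

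HSPA5 held an exact ERSE from 66 to 48 bases before its start. Its other capitals are an ERSE-II with 1 mismatch on the opposite strand, from 105 to 95 bases before the start. HERPUD1 held an exact ERSE-II from 117 to 107 bases before its start, an ERSE with 1 mismatch from 83 to 65 and, on the opposite strand, an exact ATF4 composite from 176 to 169. SDF2L1 held an exact ERSE-II on the opposite strand from 188 to 178 bases before its start, which overlaps an ERSE with 1 mismatch from 182 to 164, and an ERSE-II with 1 mismatch from 28 to 18. EDEM1 (window chr3:5187457-5187706, plus strand) had no match to ERSE or ERSE-II with up to 1 mismatch, and none of the other 2 motifs. Thus 3 of 4 members had an exact ERSE or ERSE-II, in both directions of change: HSPA5 and HERPUD1 were higher and SDF2L1 was lower. A match is a description of letters, and no match says only that these letters are not in this window.

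**Figure D4:**
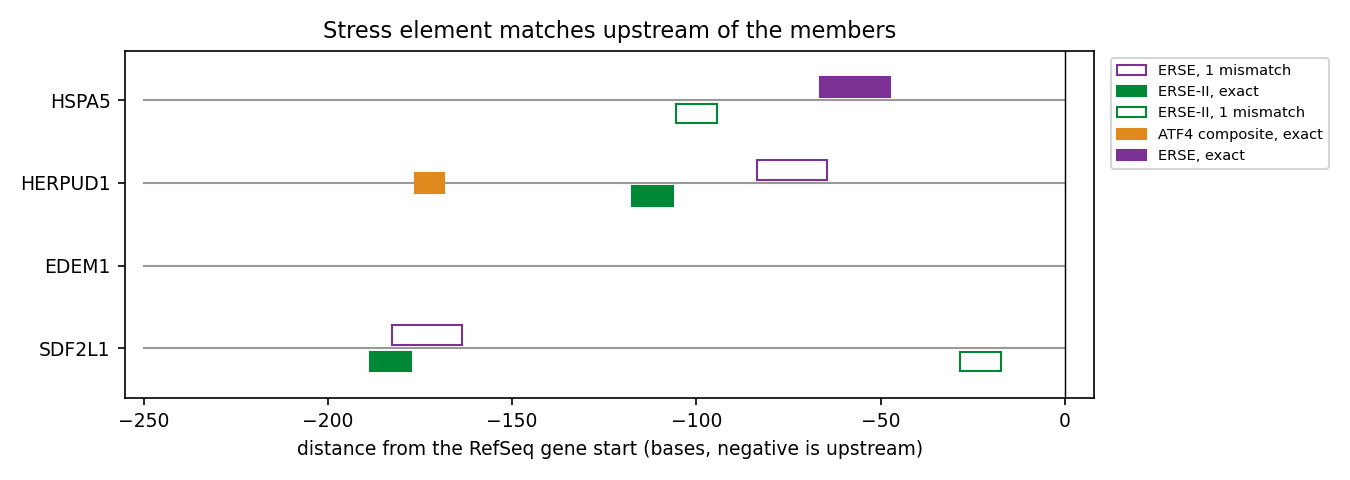
Positions of motif matches in the 250 bases before the RefSeq start of each gene, in bases from the start, with exact matches filled and ERSE or ERSE-II matches with 1 mismatch open. HSPA5 has an exact ERSE ending 48 bases before its start, HERPUD1 and SDF2L1 each have an exact ERSE-II, and EDEM1 has no match.

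Exact ERSE matches were carried by 9 of the listed genes described below. They were HSPA5, HSP90B1, CALR, CANX and CRELD2 among the chaperones, PDIA6 and ERO1LB among the disulfide genes, the transcription factor XBP1, and ALG12 of the N-glycosylation list. HSPA5 was the 1 gene of these in the G398S table, and the values of the other 8 were not analysed here. Of the 25 chaperone genes with a window, 20% had an exact ERSE, against 0.0916% of all 27303 genes with a window. Of the 15 PERK output genes with a window, 33.3% had an exact ATF4 composite, against 3.89% of all genes with a window. The lists were grouped by known role in this response, so these shares are a description and not independent of that choice.

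Other genes of the ER and of protein folding were described from 9 lists of 226 genes grouped by role. Beside the members, 23 of the other 222 listed genes were in the G398S table (10.4%), 15 higher and 8 lower, with a median log2 fold change of 0.35. That share is close to the 10.9% of all tested genes and is therefore no result about the lists as a whole. Over all genes of the table the median log2 fold change was -0.32, with 863 higher and 1000 lower.

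Of 25 genes for translocation and signal peptide cleavage, 5 were in the table, all higher, and the other 20 were not analysed here. That is 20% of the list, against 10.9% of all tested genes in either direction and 5.06% called higher. The list was chosen with earlier results of these data known, so the share is a description, and no difference was tested. The 5 had a median log2 fold change of 0.38. SEC62, a translocation factor that also takes part in clearing ER membrane after stress, rose from 31.0 to 45.9 FPKM. SEC63, its partner and a J-domain co-chaperone of BiP at the translocon, rose from 7.19 to 10.6 FPKM. TRAM1, a translocating chain-associated membrane protein, rose from 182 to 236 FPKM, SPCS2, a subunit of the signal peptidase, from 13.5 to 17.6 FPKM, and SSR1, a translocon-associated protein, from 12.1 to 15.0 FPKM. The authors' deposited table gives log2 fold changes of 0.57, 0.55, 0.38, 0.38 and 0.31 in that order, each above the value for HERPUD1 apart from SSR1.

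Beside HSPA5 and SDF2L1, 3 of 26 chaperone and folding genes were in the table (11.5%, near the 10.9% of all tested genes), 1 higher and 2 lower. DNAJC10, an ER disulfide reductase with a J domain that binds BiP, fell from 46.9 to 36.5 FPKM (log2 fold change -0.36 and q = 0.00954 in the authors' deposited table). FKBP10, a prolyl isomerase of collagen folding, fell from 24.0 to 18.0 FPKM (log2 fold change -0.41 in the authors' deposited table). CDNF, a protein related to the ER stress factor MANF, rose from 0.164 to 0.676 FPKM, and its log2 change of 2.04 per the authors' deposited table becomes 0.53 with 1 FPKM added to both groups. Of 20 genes for disulfide formation, 3 were in the table (15%), 1 higher and 2 lower. ERP29, a lumenal folding factor of the disulfide isomerase family, fell from 102 to 71.6 FPKM and PDIA5, a disulfide isomerase, from 16.2 to 12.7 FPKM. A row shared by FLJ23867 and the sulfhydryl oxidase QSOX1 rose from 6.28 to 11.1 FPKM, and its reads cannot be assigned to either gene.

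Beside HERPUD1 and EDEM1, 2 of 34 degradation genes were in the table, both higher. That is 5.88%, against 10.9% of all tested genes in either direction and 5.06% called higher, with no test of the difference. They were RNF185, an ER membrane ubiquitin ligase, which rose from 7.53 to 9.63 FPKM, and TRAM1, which is also on the translocation list. Of 18 sensors and transcription factors of the response, 1 was in the table, CREB3L3 (5.56%, against 10.9% of all tested genes). The difference was not tested, and the rest of that list was not analysed here. CREB3L3, an ER-bound transcription factor of liver, was at 0.769 FPKM without and 0.369 FPKM with doxycycline, and its log2 change of -1.06 per the authors' deposited table becomes -0.37 with 1 FPKM added.

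Of the N-glycosylation list 1 of 30 genes (3.33%) and of the ER to Golgi list 3 of 34 (8.82%) were in the table, against 10.9% of all tested genes, with no test of the difference. MAGT1, an oligosaccharyltransferase subunit, rose from 21.8 to 27.7 FPKM. SEC24B, a cargo-binding coat protein of ER export, rose from 7.80 to 10.6 FPKM and TMED3, a cargo receptor, fell from 67.5 to 51.1 FPKM. A row shared by TMED7 and TICAM2 rose from 44.6 to 58.9 FPKM. Of 21 genes of the cytosolic heat shock response, 2 were in the table, both higher. That is 9.52%, against 10.9% of all tested genes in either direction and 5.06% called higher, and the difference was not tested. HSP90AA1, an inducible HSP90, rose from 319 to 405 FPKM and DNAJA1, an HSP70 co-chaperone, from 314 to 426 FPKM.

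**Figure D5:**
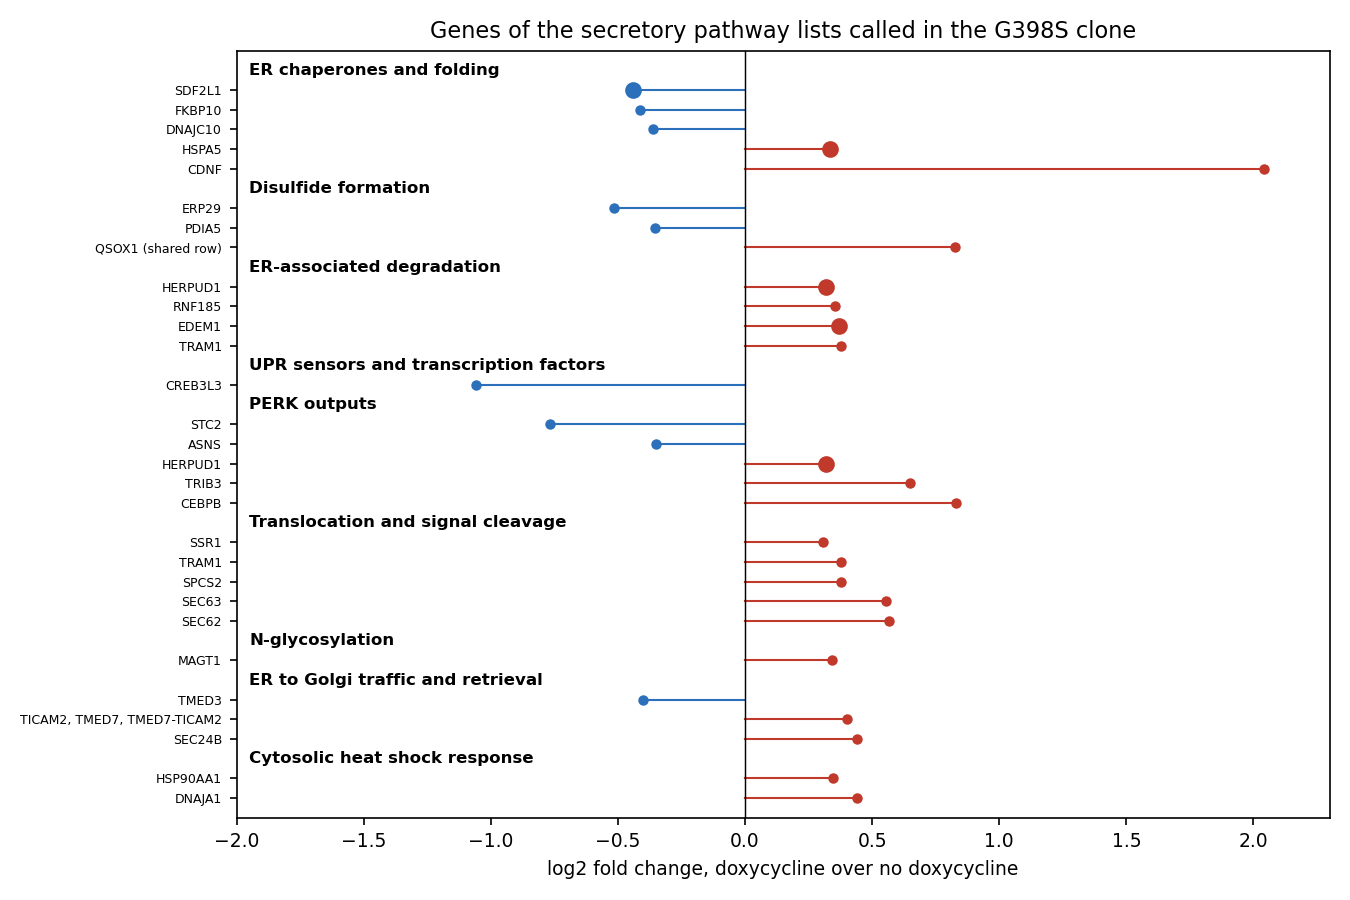
Log2 fold change with doxycycline in the G398S clone for the listed genes in the table, by role (red higher, blue lower; larger points are the 4 members; HERPUD1 and TRAM1 are each on 2 lists). The 5 of 25 translocation genes that are in the table are all higher. On the chaperone and disulfide lists, 3 rows are higher (HSPA5, CDNF and the shared row of QSOX1). The other 5 rows of those lists, SDF2L1, DNAJC10, FKBP10, ERP29 and PDIA5, are lower.

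Beside HERPUD1, 4 of 16 PERK output genes were in the G398S table (25%, against 10.9% of all tested genes), 2 higher and 2 lower. In the WT table were 3 of the list's 17 genes, all higher (17.6%, against 0.94% of tested genes). The list was chosen with earlier results of these data known, and neither difference was tested. TRIB3, a pseudokinase inhibitor of ATF4 signalling, rose in both clones, from 27.0 to 42.2 FPKM in G398S and from 26.5 to 45.5 FPKM in WT. ASNS, asparagine synthetase, went from 17.5 to 13.7 FPKM in G398S and from 22.3 to 39.9 FPKM in WT, and STC2, a secreted stress glycoprotein, from 0.805 to 0.472 FPKM and from 2.91 to 5.25 FPKM. CEBPB, a transcription factor, rose from 5.75 to 10.2 FPKM in G398S. The tables were normalised separately, so levels across clones are set side by side only as a description.

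In the WT clone 4 of the 226 listed genes were in the table (1.77%, against 0.94% of 15109 tested genes called and analysed here, and 172 genes or 1.14% that the ranks place past the threshold). Besides the 3 PERK outputs, HSPB1, a small heat shock protein, fell from 6.61 to 3.53 FPKM (log2 fold change -0.91 and q = 0.0452 in the authors' deposited table). No chaperone, disulfide, degradation, translocation, glycosylation or traffic gene of the lists was among the 142 WT genes, and this absence does not show that they did not change. Whether HSPA5, HERPUD1, EDEM1 or SDF2L1 responded differently in the 2 clones was not tested.

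In GENCODE release 29, 1 antisense gene overlaps EDEM1 and 2 sense intronic genes lie within HERPUD1, while none overlaps HSPA5 or SDF2L1. The kit is strand-specific, but whether strand was used in counting is not given in the sources used here, so reads of the antisense gene cannot be told apart from those of EDEM1.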

How the data were processed

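RNA from Huh7 cells was made into libraries with a strand-specific kit that removes ribosomal and globin RNA, per the labels. Reads were handled with STAR 2.5.0b, Cufflinks 2.2.1, Cuffdiff and bcl2fastq 2.9.1 on hg19, per the submitters' processing notes, with settings not given in the sources used here. Per the file headers, each deposited row gave 1 FPKM per group, a log2 fold change with no pseudocount, a test statistic (a score from Cuffdiff), a p-value and a q-value; replicates were pooled by the authors. The deposited name of the WT table, whose groups carry no clone label, was the source for its clone. Starts were raised by 1: end minus start matched an annotated gene length in 158 rows, against 36 if starts had been counted from 1. Numbers of genes tested were recovered as the smallest for which every deposited p-value and q-value gave a whole rank, a step tested on simulated data.

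The members are described without a test, as the contrast chose them. Their intervals are normal approximations that show the size of the error. Members and lists were chosen with earlier results of these data known. Named genes were the members, listed genes in a table, A1CF and, for each member, the 3 nearest genes with at least 1 FPKM in both groups, of which 1 is not reported here. Promoter sequences are RefSeq's on GRCh38.p14; older symbols were matched through RefSeq synonyms, and none was placed on hg19. A planned count of ER retention endings needed protein sequences and was not run. Python 3.11.15, pandas 2.3.3, numpy 2.4.6 and scipy 1.17.1 were used.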

Additional observations from a re-analysis of the deposited data

Results flagged for a closer look

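The fold changes of 2 PERK outputs had opposite signs in the clones and were picked out for the difference between them. For ASNS the log2 fold change in G398S minus that in WT was -1.19 (95% interval -1.86 to -0.52 with standard errors from the test statistics, and -1.65 to -0.72 with those from the p-values). For STC2 the difference was -1.62 (95% interval -2.51 to -0.73, and -2.17 to -1.07 from the p-values). With 1 FPKM added to both groups, a setting chosen after seeing the data, the difference shrank to -0.97 for STC2, whose level in G398S was under 1 FPKM, and was -1.14 for ASNS. Both genes are seen in both clones only because they were marked as significant in each table, and for genes of opposite sign that selection by itself pushes the interval away from 0. The intervals are therefore a description, and with 1 clone per construct the mutation and the clone cannot be told apart. For TRIB3, the third listed gene in both tables, the difference was -0.13 (95% interval -0.79 to 0.52).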

How the results depend on the processing

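Adding 1 or 0.1 FPKM to both groups moved the log2 fold change of HSPA5, HERPUD1, EDEM1 and SDF2L1 by less than its standard error. At a q of at most 0.01, 2 members were left, EDEM1 and SDF2L1, and 16 of 27 listed genes. With a minimum absolute log2 fold change of 1, 0 members and 2 listed genes were left. With a minimum of 1 FPKM in the group with the higher value, 4 members and 24 listed genes stayed, and without rows of several genes 25 listed genes. With standard errors from the p-values in place of the test statistics, the interval bound nearest 0 moved from -0.03 to 0.12 for HSPA5, from -0.06 to 0.10 for HERPUD1, from -0.01 to 0.16 for EDEM1 and from -0.04 to -0.21 for SDF2L1; the members were selected on these p-values, so this is no sign of stability. The next larger number of tested genes that fits the ranks is 34144, which would lower the shares of genes called. With 1 mismatch, ERSE was in 1.36% of windows, ERSE-II in 1.14%, UPRE in 14.6% and the ATF4 composite in 39.5%. No paired analysis was possible because the deposited values are pooled per group, and for the same reason no library could be left out in turn. Depth limits cannot be stated, since no counts were given.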
